A study of Torulaspora microellipsoides with 8 samples.

Results

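The PHO genes of *Torulaspora microellipsoides*, which take up phosphate, release it outside the cell and sense its supply, were compared between white and opaque cells. Members were the transcript regions whose annotated name was PHO5, PHO3, PHO4, PHO8, PHO80, PHO81, PHO84, PHO85, PHO89 or PHO90, and 8 of these 10 names gave 15 regions among the 4464 regions and 3317 names of the annotation. No region carried the name PHO8 or PHO90, and these were not analysed here. PHO89, PHO5 and PHO81 each named several regions, so every region is described on its own.

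*T. microellipsoides* is a budding yeast in which small haploid white cells switch spontaneously to larger opaque cells of higher ploidy, and the comparison asks how the transcripts of these forms differ in log phase. RNA came from 3 white and 3 opaque cultures of one strain, and no introduced mutation and no treatment is described for either group. The paper reports possible translocations between its white and opaque genome assemblies. Whether these cultures differed in DNA sequence was not tested here. Cultures grew in yeast extract glucose medium at 23 °C to an OD600 of 1.0, and phosphate was neither added nor withdrawn as part of the design. Each culture had been checked for purity by plating and microscopy. The replicate is the culture, and whether the cultures of a cell type began from separate colonies is not given in the sources used here, so p-values measure the spread between these cultures. Ploidy of these opaque cultures was not analysed here.

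In *Saccharomyces cerevisiae*, from which all names here were taken, phosphate shortage activates the cyclin-dependent kinase inhibitor Pho81, which stops the cyclin Pho80 and its kinase Pho85 from phosphorylating the transcription factor Pho4. Unphosphorylated Pho4 stays in the nucleus and, with Pho2, switches on the secreted acid phosphatase PHO5, the high-affinity transporters PHO84 and PHO89, and PHO81 itself. When phosphate is plentiful, uptake rests on low-affinity transporters such as Pho87 and Pho90, and PHO3, a second secreted acid phosphatase, is expressed without the need for starvation.

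The 6 libraries held 24948791 to 50126043 counts in all regions, the white ones between 27057131 and 36957019 and the opaque ones between 24948791 and 50126043. Levels are CPM, the counts scaled to a common library total, after TMM normalization, a scaling that balances the bulk of regions between libraries, so they give a share of the mRNA and not an amount per cell. Marker genes that the study itself picked on these samples went the way of their labels, with XBP1, GLK1 and CTT1 lower and RPL30, GAP1 and MEP2 higher in opaque cells, without overlap between libraries. Differences were tested with edgeR's quasi-likelihood test on 4404 regions with enough counts, with Benjamini-Hochberg adjustment across them, and a region was called where the adjusted p was below 0.05. Each log2 fold change is opaque minus white.

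All 15 member regions were tested. In opaque cells 7 were lower and 3 were higher, and 5 were not called. The cell types differed at so many regions that this is no excess, since 10 of 15 member regions were called (66.7%) against 74.2% of all tested regions. Lower regions made up 46.7% of the members against 37.6% of all regions, and higher regions 20% against 36.6%. The median log2 fold change was -0.26 for the members and -0.02 for all regions. By role, the 5 transporter regions were all lower in opaque cells, but 4 of them are PHO89 regions that overlap or adjoin at 2 places. The 4 acid phosphatase regions went in both directions, and of the 6 regulator regions 2 were higher, 1 was lower and 3 were not called. Regions that overlap or adjoin are not independent, so the member shares in this paragraph count some places more than once. Called differences of at least 4-fold were found for 4 member regions (26.7%) against 11.2% of all regions, and 3 of these 4 had fewer than 10 counts in every opaque library or, for PHO81 on scaffold 8, in every white one. The libraries of the cell types did not overlap for 11 member regions (73.3%), against 77.8% of all regions.

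**Figure D1:**
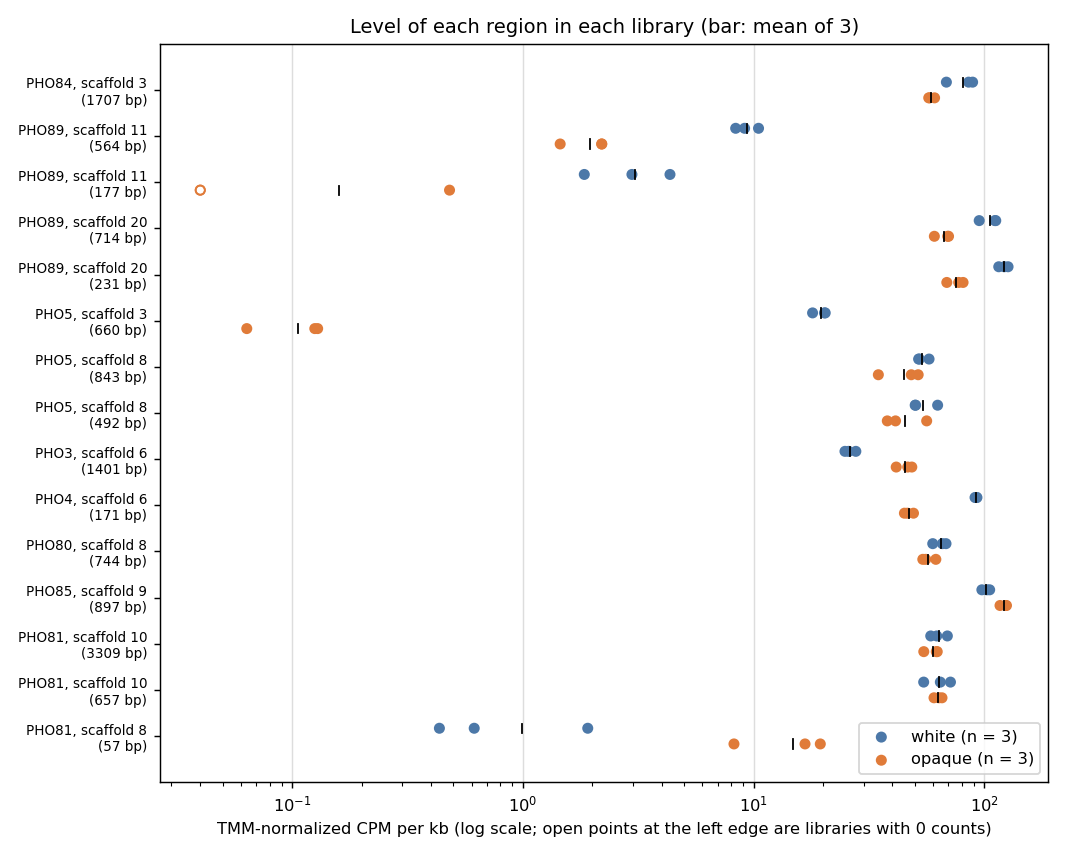
Level of each of the 15 member regions in each library, in TMM-normalized CPM per kb of region on a log axis, with white libraries in blue, opaque libraries in orange and a bar at the mean of each group of 3. Most regions lie between 20 and 130 CPM per kb in both cell types, while PHO5 on scaffold 3, PHO89 on scaffold 11 and PHO81 on scaffold 8 lie far below them in at least one cell type.

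PHO84, the high-affinity proton-coupled phosphate transporter of the plasma membrane in *S. cerevisiae*, had 1 region of 1707 bp (scaffold 3, 98174 to 99880, minus strand, 73.1% identity to its *S. cerevisiae* protein). Its level was 146, 117 and 152 CPM in the white libraries and 99.0, 98.1 and 104 CPM in the opaque libraries. Every white library lay above every opaque one, and the white libraries were spread more widely (138 ± 18.6 against 100 ± 2.93 CPM, SD, n = 3 each). The opaque transcript fell by 0.46 on the log2 scale (SE 0.092, edgeR adjusted p = 8.1e-04), 1.38-fold lower, and leaving out any one library gave between -0.57 and -0.40. The region lies 98173 bp from the start of its scaffold, and of 17 tested regions within 20 kb of it 6 were lower, 3 higher and 8 not called, so its small decrease stands among neighbours of mixed direction.

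PHO89, the sodium-coupled phosphate transporter that works best at alkaline pH in *S. cerevisiae*, was the name of 4 regions at 2 places in the assembly. The region of 714 bp on scaffold 20 (1431 to 2144, minus strand, 58.7% identity) carried most of the counts, with 79.4, 80.1 and 67.9 CPM in the white libraries and 50, 43.4 and 49.6 CPM in the opaque libraries. All white values were above all opaque values (75.8 ± 6.85 against 47.7 ± 3.66 CPM, SD, n = 3 each), and the region fell by 0.67 on the log2 scale (SE 0.085, edgeR adjusted p = 2.7e-05). A second region of 231 bp (1595 to 1825, 66.7% identity) lies inside it and shares its reads, so its log2 fold change of -0.68 (edgeR adjusted p = 4.4e-05) is not a separate observation. Both lie within one predicted gene of 5891 bp that begins at the start of the scaffold, and no other region of that scaffold was tested.

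On scaffold 11 the PHO89 region of 564 bp (38158 to 38721, minus strand) was the best match of all member regions, at 91.5% identity, but was far less abundant. It held 147, 173 and 239 counts in the white libraries, or 5.16, 4.72 and 5.93 CPM, and 39, 30 and 29 counts in the opaque libraries, or 0.819, 1.24 and 1.24 CPM. The groups were well separated, at 5.27 ± 0.612 and 1.10 ± 0.243 CPM (SD, n = 3 each). Reads covered 100% of its bases in each white library and 90.6%, 88.1% and 95.7% in the opaque libraries, so its few opaque reads were spread over most of the region. Its log2 fold change was -2.31 (SE 0.22, edgeR adjusted p = 2.3e-06), 4.97-fold lower, and was between -2.43 and -2.10 without any one library.

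A short PHO89 region of 177 bp follows it directly (38752 to 38928, 79.7% identity) and was close to the floor of detection. It had 15, 12 and 31 counts in the white libraries and 0, 0 and 2 in the opaque libraries. After scaling for library size its counts were 26.2-fold higher in white cells, with an exact 95% Clopper-Pearson interval of 6.93 to 221 that, like all such intervals here, covers counting error only. The fitted log2 fold change of -4.46 (SE 0.89, edgeR adjusted p = 8.2e-04) rested on few reads, since it was -7.29 without opaque replicate 3 and -3.59 without opaque replicate 1, and without white replicate 3 the region was too sparse to be tested. This place lies 11642 bp from the last annotated base of the scaffold. Of its 14 tested neighbours within 20 kb, that short PHO89 region included, 7 were lower, 4 were higher and 3 were not called, among them GTT2, named for a glutathione transferase, at -2.29.

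Counted per kb, a chosen set of transporters reached similar totals in each library but in different proportions. The sum over PHO84, PHO89 at both places, and PHO87 and PHO91 of the wider pathway was 297, 274 and 289 CPM per kb in the white libraries and 304, 285 and 302 in the opaque libraries, so the ranges overlapped. PHO84 made up 28.2% ± 2.90 of that sum in white cells and 19.8% ± 0.604 in opaque cells (SD, n = 3 each). PHO89 on scaffold 20 went from 37.1% ± 4.07 to 22.5% ± 0.967. PHO87, a low-affinity transporter in *S. cerevisiae*, went the other way, from 9.46% ± 0.044 to 39.8% ± 1.18, and no library of one cell type came near the other. These transporters were put together after their values had been seen, so no test is given for the shares. PIC2, a mitochondrial carrier, and GIT1 were left out of the sum. PIC2 fell from 302 ± 18.8 to 8.50 ± 0.619 CPM over its 909 bp (SD, n = 3 each). The similar totals therefore depend on which transporters were put together.

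PHO87 was the transporter that rose. Its region of 2703 bp (scaffold 6, 280626 to 283328, 66.9% identity) stood at 75.7, 70.3 and 73.7 CPM in white and 335, 309 and 314 CPM in opaque libraries. It rose by 2.13 on the log2 scale (SE 0.065, edgeR adjusted p = 2.2e-10), 4.36-fold. Within each library, PHO84 was above PHO87 per kb in white cells (log2 ratios of 1.61, 1.40 and 1.70) and below it in opaque cells (-1.09, -0.99 and -0.94), a difference of -2.58 that does not depend on scaling between libraries. PHO91, which exports phosphate from the vacuole in *S. cerevisiae*, fell by 0.32 (SE 0.069, edgeR adjusted p = 0.0013). PHO91 and the PHO84 to PHO87 ratio were chosen after their values were seen.

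**Figure D2:**
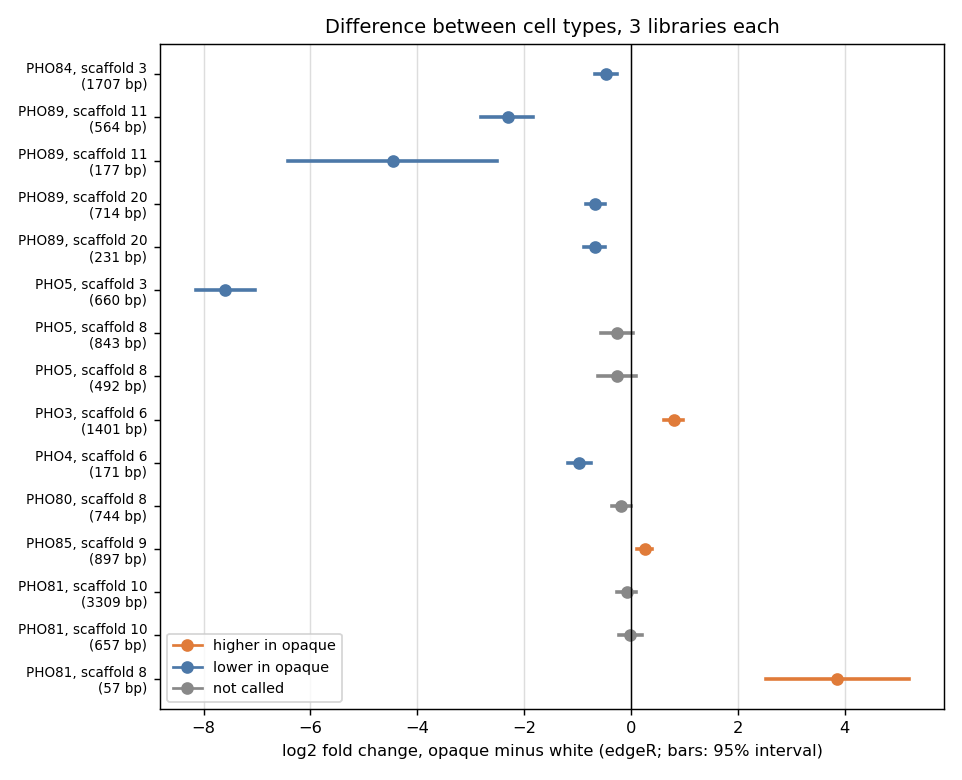
Log2 fold change of each member region, opaque minus white, as fitted by edgeR over 3 libraries of each cell type, with bars for the 95% interval and colour for the call. All 5 transporter regions at the top, which include PHO89 regions that overlap or adjoin, lie below 0. PHO5 on scaffold 3 stands apart at -7.59, and the widest intervals belong to the regions of 177 bp and 57 bp.

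Among the acid phosphatases the name PHO5 covered regions with different outcomes. PHO5 on scaffold 3 (33505 to 34164, minus strand, 660 bp, 58.2% identity) held 338, 495 and 540 counts in the white libraries and 2 counts in each opaque library. That is 11.9, 13.5 and 13.4 CPM against 0.0420, 0.0828 and 0.0852 CPM, a moderate level in white cells and nearly none in opaque cells. Reads covered 100% of the region in every white library, and 16.4%, 22.9% and 16.4% of it in the opaque libraries. Its log2 fold change was -7.59 (SE 0.25, 95% interval -8.15 to -7.03, edgeR adjusted p = 3.8e-10), and the count ratio was 207-fold in favour of white cells (exact interval 94.7 to 564). It ranked as number 9 from the lowest log2 fold change of all tested regions, and 33 regions (0.749%) were below -5. Leaving out any one library gave between -7.78 and -7.21.

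The PHO5 regions on scaffold 8, which adjoin each other in a single predicted gene, were the more abundant form and were not called. The first (774106 to 774948, minus strand, 843 bp, 57.3% identity) had 43.8, 48.6 and 44.1 CPM in the white libraries and 43.6, 29.3 and 40.7 CPM in the opaque libraries. Its white values were all above its opaque values, but opaque replicate 1 nearly met them, and the log2 fold change of -0.26 (SE 0.13, 95% interval -0.56 to 0.04) had an edgeR adjusted p of 0.10. The next (774948 to 775439, 492 bp, 53.9% identity) had 24.8, 30.9 and 24.7 CPM in white and 27.7, 18.7 and 20.3 CPM in opaque libraries. These overlapped, with a log2 fold change of -0.26 (SE 0.15, edgeR adjusted p = 0.15). Both outcomes depended on opaque replicate 1 and on the scaling between libraries. Without that library the regions were at -0.40 (edgeR adjusted p = 0.025) and -0.48 (edgeR adjusted p = 0.0065). With all libraries but upper-quartile scaling, both were at -0.38 (edgeR adjusted p = 0.027 and 0.046). Within each library, the log2 ratio per kb of PHO5 on scaffold 3 to the first region on scaffold 8 was -1.53, -1.49 and -1.37 in white cells, and -9.67, -8.11 and -8.54 in opaque cells.

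PHO3, the thiamine-repressed acid phosphatase of *S. cerevisiae*, was the acid phosphatase that rose. Its region of 1401 bp (scaffold 6, 911246 to 912646, plus strand, 67.2% identity) stood at 34.9, 36.2 and 38.9 CPM in white and 58.2, 65.3 and 68.0 CPM in opaque libraries. The opaque libraries were all above the white ones (63.8 ± 5.07 against 36.7 ± 2.03 CPM, SD, n = 3 each). The log2 fold change was 0.80 (SE 0.080, edgeR adjusted p = 3.5e-06), 1.74-fold, and 0.73 to 0.84 without any one library.

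Relative to PHO3, PHO5-named transcript was lower in each opaque library than in any white one. The most abundant PHO5 region was above PHO3 per kb in every white library (log2 ratios of 1.06, 1.16 and 0.91) and at about the same level in the opaque libraries (0.32, -0.42 and -0.01). The difference of -1.08 gave an exact permutation p of 0.1 (two-sided, n = 3 each), which is the smallest that 3 against 3 libraries allow, and 0.133 after Benjamini-Hochberg adjustment over the 4 ratios computed. Summed over the acid phosphatase loci, PHO12 included, the level was 92.0, 103 and 97.1 CPM per kb in the white libraries and 95, 82.7 and 94.3 CPM per kb in the opaque libraries, so these overlapped. PHO3 made up 26.9% ± 1.72 of that sum in white cells and 50.5% ± 6.39 in opaque cells, whereas the locus on scaffold 3 went from 17.4% ± 0.802 to 0.13% ± 0.0416 (SD, n = 3 each). The sum was defined after the values were seen and is given without a test. These regions are relatives of one family, and how reads matching more than 1 of them were counted is not given in the sources used here.

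**Figure D3:**
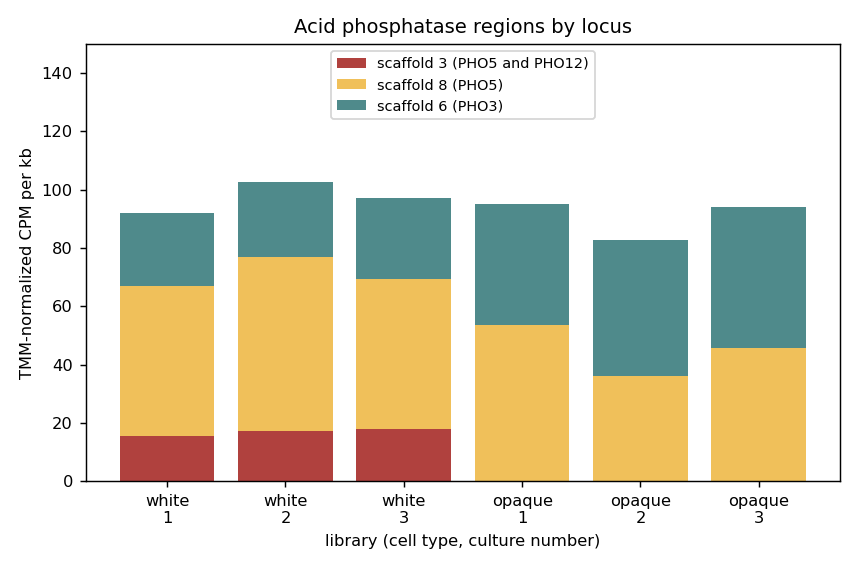
Acid phosphatase level of each library, in TMM-normalized CPM per kb, as stacked bars for the loci on scaffold 3 (PHO5 and PHO12), scaffold 8 (PHO5) and scaffold 6 (PHO3). The 6 bars reach between 82.7 and 103, but the scaffold 3 part is too small to see in the opaque libraries and the PHO3 part is larger in each opaque library than in any white one.

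The surroundings of these loci differed. All 19 tested regions within 20 kb of PHO5 on scaffold 3 were lower in opaque cells, 17 of them at least 4-fold, with a median log2 fold change of -3.95. They included PHO12 (34357 to 34542, 186 bp, 66.1% identity), named for another secreted acid phosphatase, directly beside PHO5, with 1.40, 1.15 and 1.66 CPM in white and 0.0420, 0.0414 and 0 CPM in opaque libraries (log2 fold change -5.33, SE 0.54, edgeR adjusted p = 4.2e-06). Whether the PHO5 and PHO12 matches at this place are parts of a single gene was not tested. Next to them lay FRE3, named for a ferric reductase, at -7.01 and SUL1, named for a sulfate permease, at -6.76. The farthest fall in the stretch was that of YIL169C at -10.01. PHO5 is 33504 bp from the start of its scaffold, inside a run of 27 regions that were all lower in opaque cells, 23 of them at least 4-fold. The run ended with a log2 fold change of -0.53 at base 56951, and the next region, at 58101, was higher in opaque cells, so PHO84 at 98174 of that scaffold lay outside the run. In this run, opaque libraries held 357, 201 and 158 counts of VBA2 but 75, 0 and 8 of YIL169C. DNA over this stretch was not analysed here, although the series holds a DNA sample of each cell type. Whether a loss of DNA underlies the lower counts was therefore not tested.

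PHO3 also lies near a scaffold end, 8440 bp from the last annotated base, but it rose where its neighbours mostly fell. Of 17 tested regions within 20 kb, 12 were lower, 3 were higher and 2 were not called, with a median log2 fold change of -1.25. The neighbours that changed at least 4-fold were lower in 7 cases, such as BDH2 (1122 bp) at -2.14, and higher in 1 case, ECM1 at 2.27. Several of the lower ones were short matches, such as SPT7 (69 bp), HSP60 (81 bp) and a region of 78 bp named ADE17 at -3.94. A longer ADE17 region on scaffold 1 was slightly higher in opaque cells, at 0.22. Around PHO5 on scaffold 8, at 27673 bp from the last annotated base, 11 of 17 tested regions were not called, the adjoining PHO5 region among them, 6 were lower and none was higher. Of the 6 lower, YPS1 at -4.12 and MST27 at -4.11, both of 108 bp and close to the edge of that window, changed at least 4-fold. Counting all members, 8 of 15 regions lay within 40 kb of a scaffold end, and 7 of those belonged to PHO5 or PHO89. For PHO89 this followed from scaffold size, as the last annotated bases of scaffolds 20 and 11 are 8623 and 50363. By this measure every region on those scaffolds lies within 40 kb of an end. The share over all regions was not computed, so whether members lie near scaffold ends more often than other regions was not tested.

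**Figure D4:**
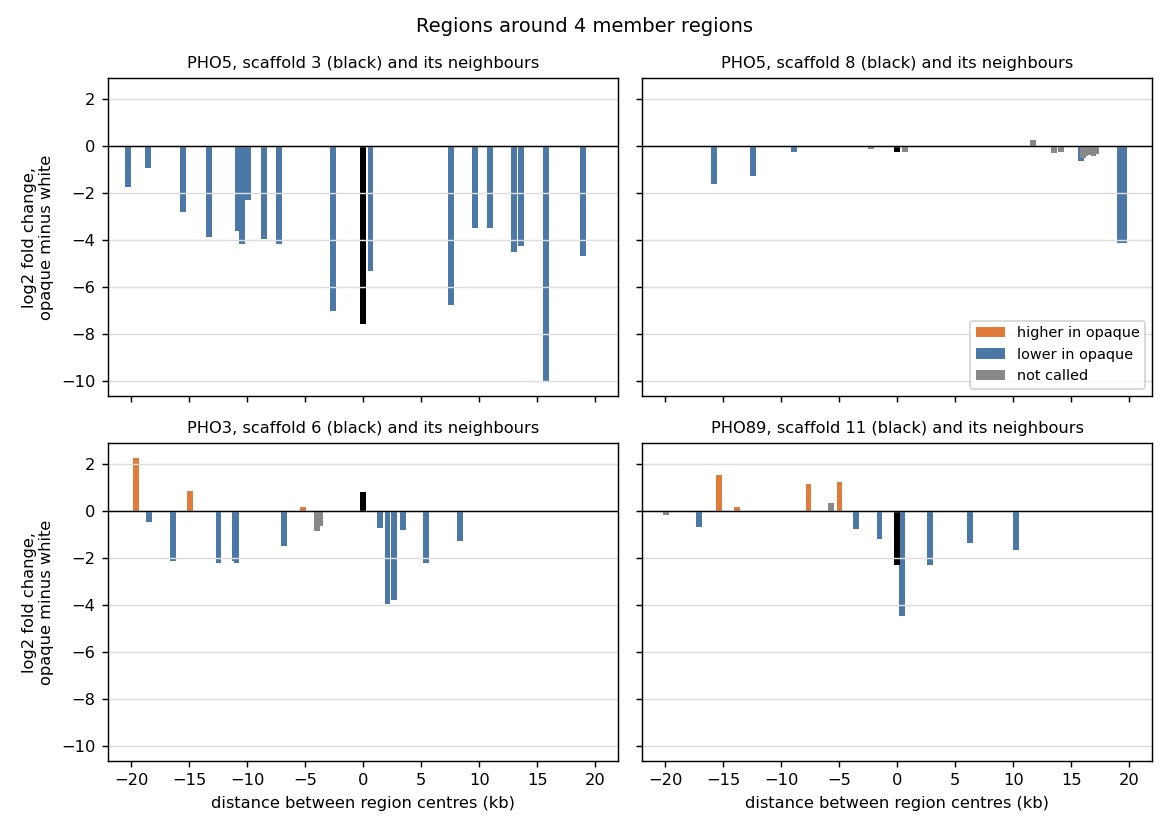
Log2 fold change, opaque minus white, of every tested region within 20 kb of 4 member regions, against the distance between region centres in kb, with the member in black and neighbours coloured by their call. Around PHO5 on scaffold 3 all 19 neighbours are lower in opaque cells, around PHO5 on scaffold 8 most are not called, and PHO3 stands above 0 among neighbours of which 12 of 17 are lower.

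Among the regulators, the activator PHO4 fell, PHO85 rose slightly, and PHO80 and the longer PHO81 regions were not called. The PHO4 region is only 171 bp long (scaffold 6, 512778 to 512948, plus strand, 57.6% identity), within a predicted gene of 2081 bp, and its 15.8, 15.9 and 15.6 CPM in white libraries compare with 8.44, 7.95 and 7.71 CPM in opaque libraries. Replicates lay close together and the groups far apart (15.7 ± 0.143 against 8.03 ± 0.369 CPM, SD, n = 3 each). In opaque cells the transcript of this activator fell by 0.97 on the log2 scale (SE 0.099, edgeR adjusted p = 4.5e-06), 1.95-fold. Its 17 tested neighbours mostly went the other way, with 12 higher and 4 lower, and FAF1 at 2.50 was the one that changed at least 4-fold. PHO2, the homeodomain partner of Pho4, named here after its value was seen, also fell, by 0.74 (SE 0.070, edgeR adjusted p = 2.4e-06).

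PHO85, the kinase, rose slightly. It had 94.7, 92.1 and 87.6 CPM in white and 111, 105 and 112 CPM in opaque libraries (scaffold 9, 405811 to 406707, minus strand, 897 bp, 90.0% identity). The groups did not overlap, and the log2 fold change of 0.26 (SE 0.061, edgeR adjusted p = 0.0026) amounts to 1.2-fold. It was no longer called when libraries were scaled by total counts (0.10, edgeR adjusted p = 0.12).

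PHO80, the cyclin that pairs with Pho85, had 50.8, 44.5 and 49.0 CPM in white and 40.3, 45.9 and 41.5 CPM in opaque libraries (scaffold 8, 612946 to 613689, plus strand, 744 bp, 56.2% identity). The groups overlapped through white replicate 2 and opaque replicate 2, and the log2 fold change of -0.18 (SE 0.080) had an edgeR adjusted p of 0.064. This call was close to the threshold, as it was -0.23 (edgeR adjusted p = 0.023) without white replicate 2 and -0.25 (edgeR adjusted p = 0.031) without opaque replicate 2.

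PHO81, the inhibitor of that kinase, had a main region of 3309 bp with the highest CPM of all members (scaffold 10, 224958 to 228266, plus strand, 49.0% identity). White libraries gave 206, 194 and 229 CPM and opaque libraries 181, 207 and 205 CPM, which overlapped (log2 fold change -0.08, SE 0.080, 95% interval -0.26 to 0.09, edgeR adjusted p = 0.36). Per kb, the log2 ratio of PHO81 to PHO80 was -0.14, -0.03 and 0.07 in white and 0.02, 0.02 and 0.16 in opaque libraries, a difference of 0.10 (exact permutation p = 0.4, two-sided, n = 3 each, and 0.4 after Benjamini-Hochberg adjustment). Within 20 kb of it, UGA4 (4.04) and IMP3 (2.51) were at least 4-fold higher and REC104 (-2.77) at least 4-fold lower in opaque cells.

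The remaining PHO81-named regions were weak matches or very short. One of 657 bp on the opposite strand of the same predicted gene (228434 to 229090, 25.2% identity, the lowest of the members) stood at 35.9 to 46.9 CPM in white and 39.8 to 43.1 CPM in opaque libraries, a log2 fold change of -0.01 (edgeR adjusted p = 0.96). The library kit keeps strand but whether counting used it is not given in the sources used here, so reads from either strand cannot be told apart. The other, of 57 bp on scaffold 8 (649737 to 649793, plus strand, 57.9% identity), had 1, 4 and 1 counts in the white libraries and 53, 23 and 11 in the opaque libraries. This was the largest increase among the members, with a log2 fold change of 3.86 (SE 0.61, edgeR adjusted p = 1.4e-04), a count ratio of 16.1 (exact interval 7.08 to 44.9) and between 3.45 and 4.74 on the log2 scale when any one library was left out, the highest without white replicate 2. Its surroundings were mixed, with 8 of 17 tested regions lower, 7 higher, 2 not called and none changed by 4-fold. The nearest tested regions before it were higher in opaque cells too, with PRB1 at 0.82 and 0.87 and UTP23 at 1.93, whereas the nearest after it, FUM1, was lower at -0.39. These 3 genes are named because they adjoin it.

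Ranked per kb, the members fell in a different order in each cell type. In white cells PHO89 on scaffold 20 (106 ± 9.59 CPM per kb) and PHO85 (102 ± 4.01) came first among separate regions, with overlapping libraries, followed by PHO4 (92.0 ± 0.834) and PHO84 (80.9 ± 10.9). PHO80 (64.7 ± 4.43), the PHO81 regions of scaffold 10 (63.6 ± 8.41 and 63.3 ± 5.33) and the PHO5 regions of scaffold 8 (54.5 ± 7.16 and 53.9 ± 3.18) each overlapped with the next in order. PHO3 (26.2 ± 1.45), PHO5 on scaffold 3 (19.6 ± 1.40) and the longer PHO89 region of scaffold 11 (9.34 ± 1.09) came after them without overlap (SD, n = 3 for each region).

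In opaque cells PHO85 (122 ± 4.04 CPM per kb) stood alone at the top. PHO89 on scaffold 20 (66.8 ± 5.13), PHO81 (59.8 ± 4.44 for its main region), PHO84 (58.7 ± 1.72) and PHO80 (57.2 ± 3.95) formed a group in which each overlapped with the next. PHO4 (47.0 ± 2.16), PHO3 (45.5 ± 3.62) and both PHO5 regions of scaffold 8 (45.2 ± 9.76 and 44.9 ± 8.96) formed another. PHO5 on scaffold 3 was the lowest of all, at 0.106 ± 0.0368 (SD, n = 3 for each region), and its libraries overlapped with those of the short PHO89 region of scaffold 11.

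The regions most like PHO5 on scaffold 3 over the 6 libraries, by Euclidean distance of mean-centred log2 CPM, were YRO2 (0.734), OM45 (0.866) and FRE3 (0.896). YRO2 and OM45 lie on scaffolds 5 and 1, far from PHO5, with log2 fold changes of -6.45 and -7.03. For PHO81 on scaffold 8, which had the largest increase, the nearest were TMA23 (0.973), BAS1 (1.04) and SGD1 (1.07). TMA23, BAS1 and SGD1 rose by 2.56, 2.79 and 2.99 on the log2 scale, against 3.86 for this PHO81 region. That region is 57 bp long and held 6 counts in the white libraries altogether, so its distances rest on few reads. BAS1 encodes a transcription factor of purine and histidine synthesis in *S. cerevisiae*.

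Other genes of the phosphate pathway, from a list of 46 names, were tested where a region carried the name, each by its most abundant region. Of the 28 tested, 5 were higher and 20 lower in opaque cells, and 3 were not called. Called genes made up 89.3% of them, with a median log2 fold change of -0.37. Taken likewise by their most abundant region, 78.5% of all 3300 tested names were called, 41.1% higher and 37.4% lower, with a median of 0.02. The 5 that rose were PHO87, PCL5, PHO88, PHO13 and VIP1, and the 3 not called were IPK1, PSE1 and PPN1. PHO88, VIP1, IPK1, PSE1 and PPN1 are named only because these groups are small.

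Among phosphatase relatives, PHO13, which dephosphorylates by-products of sugar metabolism, rose from 277 ± 22.1 to 499 ± 25.1 CPM (SD, n = 3 each), that is by 0.85 on the log2 scale (SE 0.076, edgeR adjusted p = 1.4e-06). The transport group had 2 higher and 3 lower members, PHO91, PIC2 and GIT1. All 5 of its tested genes were called, against 78.5% of all names, though 5 genes are few. GIT1, a glycerophosphoinositol permease named here after its values were seen, counts as lower through a region of 29.7% identity at -3.50, while its region of 64.8% identity was not called (-0.12, edgeR adjusted p = 0.30). The group's largest decrease was that of PIC2, a phosphate carrier of the mitochondrial inner membrane, with 280, 310 and 315 CPM in white and 9.19, 8.28 and 8.01 CPM in opaque libraries (log2 fold change -5.14, SE 0.089, edgeR adjusted p = 9.6e-12). No opaque library came near a white one, and PIC2 was 35.2-fold lower in opaque cells.

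In the group of signalling and regulation, 9 of 13 tested genes were lower, 2 were higher and 2 were not called, so 84.6% were called against 78.5% of all names. PCL5, a Pho85 cyclin that directs the kinase to the amino acid regulator Gcn4, rose by 2.86 (SE 0.15, edgeR adjusted p = 2.7e-07), from 58.9 ± 2.91 to 426 ± 94.7 CPM (SD, n = 3 each). A second PCL5-named region of 111 bp lies in the falling stretch beside PHO5 on scaffold 3 and was lower in opaque cells, at -3.47, with 67 counts in white and 5 in opaque libraries altogether. The G1 cyclin PCL1, another partner of Pho85, fell by 1.16 (SE 0.089, edgeR adjusted p = 3.8e-07).

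Of 5 tested genes of polyphosphate, the phosphate store of the vacuole, 4 were lower and 1 was not called (80.0% called, close to the 78.5% of all names). The largest difference was that of VTC1, a small subunit of the polyphosphate polymerase, which fell by 1.15 (SE 0.074, edgeR adjusted p = 8.1e-08) from 151 ± 3.62 to 68.3 ± 6.29 CPM (SD, n = 3 each). All 3 of the other phosphate-responsive genes tested were lower, against 37.4% of all names, though 3 genes are few. PHM7, a membrane protein induced by low phosphate in *S. cerevisiae*, fell by 1.57 (SE 0.16, edgeR adjusted p = 3.8e-05), and GDE1, a glycerophosphodiesterase that frees phosphate from glycerophosphocholine, fell by 1.24 (SE 0.074, edgeR adjusted p = 4.3e-08).

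**Figure D5:**
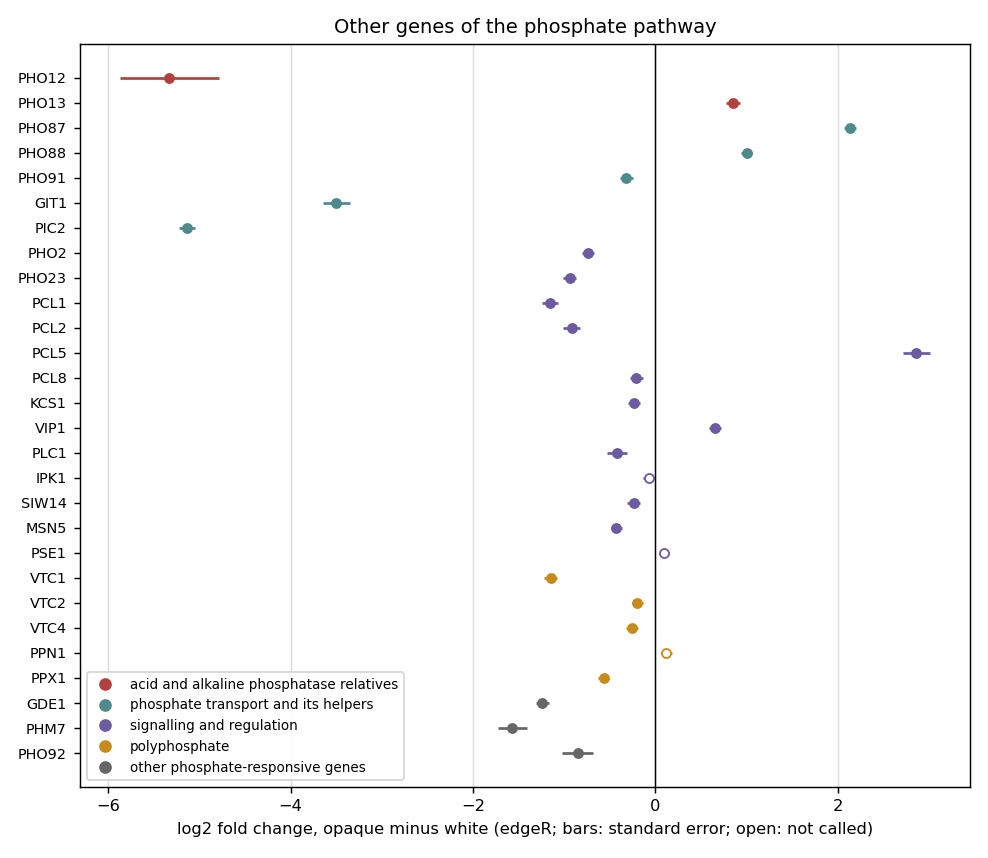
Log2 fold change, opaque minus white, of the 28 tested genes of the wider phosphate pathway, coloured by group, with bars for the standard error and open points for genes not called. Most points lie below 0, with PHO12 and PIC2 lowest, and the 5 genes above 0 that were called include PHO87 at 2.13 and PCL5 at 2.86.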

How the data were processed

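RNA of 3 white and 3 opaque cultures was sequenced as paired-end libraries from a strand-keeping kit. The authors aligned reads to the CLIB830T genome with STAR, assembled and merged transcripts of all libraries with cufflinks, and named regions by their best BLAST match among *S. cerevisiae* proteins. They deposited 1 table per library with raw counts per region and the fraction of bases covered, printed here as a percent, and an annotation whose percent identity to the protein match was deposited beside each region. Replicates were not pooled, and the counting tool and its use of strand are not given in the sources used here. Coordinates are those of the annotation on CLIB830T. Scaffold lengths were not used, so a distance to the last annotated base is a minimum. Region lengths are those of the protein match, which can cover only part of a gene, so levels per kb are per kb of match.

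Counts were analysed with edgeR 4.0.16 in R 4.3.3 (TMM, filterByExpr, a robust quasi-likelihood fit whose one factor was cell type, Benjamini-Hochberg adjustment over 4404 tested of 4464 regions, threshold 0.05). The standard error is the log2 fold change over the root of its F value. Libraries held 24948791 to 50126043 counts, with a common biological coefficient of variation of 0.0847. The TMM factors ranged from 0.9406 to 1.0907. Exact permutation tests and Clopper-Pearson intervals came from scipy 1.17.1. No pair of libraries agreed within sampling noise. Alternatives were RLE, upper-quartile and total-count scaling, DESeq2 1.42.0, other count filters, the culture number as a block, counts summed per name, and each library left out.

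The members, the pathway list and the tests were chosen with earlier results of these data known. Text names every member region, up to 2 pathway genes per group and direction with the largest change or smallest p, neighbours within 20 kb changed at least 4-fold (by count with examples around PHO5 on scaffold 3 and PHO3), and the 3 regions most like the member with the largest change in each direction. Exceptions are named where they occur. Ratios of PHO84 and PHO89 to PHO90 and of PHO5 to PHO8 were planned but not run, as no region carries the latter names, and the ratios of PHO84 to PHO87 and between the PHO5 loci were added after the data were seen. The DNA samples were not analysed here.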

Additional observations from a re-analysis of the deposited data

How the results depend on the processing

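Of 199 values of member regions under an alternative, 178 kept their direction and their side of the threshold, 15 newly passed it, 1 no longer passed and 5 changed sign. With counts summed per name, the sum over all regions of a name was set against its most abundant region, so those values are not of single regions. The 5 that changed sign were all of the uncalled PHO81 region at 228434 of scaffold 10, which was at -0.01 and became 0.01 with RLE factors, 0.01 with DESeq2, 0.00 with the replicate block, 0.09 without white replicate 2 and 0.01 without opaque replicate 2, within a range of -0.11 to 0.09 when any one library was left out. Upper-quartile and total-count scaling moved the median of all regions by -0.12 and -0.16 and the split of member regions from 3 higher and 7 lower to 3 and 10 and to 2 and 11, in which PHO80 (-0.30 and -0.34) and both PHO5 regions of scaffold 8 (-0.38 and -0.42, and -0.38 and -0.41) counted as lower and, with total counts, PHO81 (-0.24) also did. Over all regions, 1611 were higher and 1656 lower as reported, against 1402 and 1937 under upper-quartile scaling and 1317 and 2021 under total counts. The calls of PHO80 also passed without a filter on low counts (-0.19) and with at least 10 counts in every library (-0.21). Summed over all regions of a name, PHO5 was at -0.54 and PHO80 at -0.23.

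Leaving out 1 library gave 9 to 12 called member regions (10 with all libraries) and 24 to 25 called pathway genes (25 with all). With a floor of 10 counts in every library, PHO5 on scaffold 3, PHO81 on scaffold 8 and the 177 bp PHO89 region were not tested, since one cell type had almost no counts there. Deviations from the group means correlated at -0.036, -0.036 and 0.181 between white and opaque cultures of the same number. Between cultures of different number the correlations ran from -0.192 to 0.209. With 3 libraries per cell type these values cannot decide whether the cultures were paired. The paper calls its log-phase cultures matched. With the culture number as a replicate block, 10 member regions, 25 pathway genes and 3259 of all regions were called, against 10, 25 and 3267 without it. Depth limits the 3 regions with fewer than 10 counts in every library of one cell type, whose folds have wide counting intervals.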
